A study of Mus musculus with 16 samples.

Results

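The genes described here encode scaffold proteins of the postsynaptic density, together with the kinase that docks on them: Dlg2, Dlg3, Dlg4, Dlgap1, Shank1, Shank2, Shank3, Homer1 and Camk2a. They were taken by symbol from the table of raw read counts, where each of the 9 names matched 1 of 55335 genes. The counts came from whole hippocampus of 16 female mice in 4 groups of 4, all 10 months old at collection and all infused into the lateral ventricle for 28 days from an osmotic pump. WT-D were C57BL/6J x 129S1 mice given vehicle (0.8% DMSO in artificial cerebrospinal fluid). WT-S were the same strain given the stearoyl-CoA desaturase (SCD) inhibitor CAY10566, from Cayman Chemical, at 80 µM in the same vehicle. 3xTg-D and 3xTg-S were 3xTg mice given the same vehicle and the same inhibitor, respectively. The 3xTg strain, a model of Alzheimer's disease, joins a knock-in of mutant presenilin 1 (Psen1tm1Mpm) to human APPSwe and tauP301L transgenes, both driven by the neuron-specific Thy1.2 element. SCD makes monounsaturated fatty acids, and the design asked how blocking it alters the 3xTg hippocampus. Each of the 16 mice carried a pump, and whole hippocampi were read, so that neurons, glia and vessels all contributed RNA.

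The postsynaptic density is the protein mesh beneath the membrane of an excitatory synapse, on the spine that faces the glutamate-releasing terminal. Membrane-associated guanylate kinases of the Dlg family hold glutamate receptors and adhesion molecules in place and bind Dlgap linkers, the linkers bind Shank proteins, and Shank proteins bind Homer, which reaches metabotropic receptors and the actin skeleton of the spine. CaMKII, the calcium-activated kinase of which Camk2a encodes the alpha subunit, is among the most abundant proteins of this structure and is required for the strengthening of hippocampal synapses during learning.

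Genes took 15413385 to 23590149 reads in a mouse. The share of uniquely mapped reads that lay outside annotated genes varied between 7.82% and 15.1%, with group medians under vehicle of 11.3% in WT and 10.5% in 3xTg mice, and under inhibitor of 10.2% and 12.4%. Thy1, the gene whose regulatory element drives both transgenes, was read at 517 to 625 CPM (read counts scaled to the library size) in the 8 WT mice and at 1566 to 2141 CPM in the 8 3xTg mice, so the genotype labels were met in every library. Markers of glutamatergic neurons (Slc17a7, Neurod2, Neurod6 and Tbr1) were all detected, and their summed level, at 1251 to 1632 CPM over the 16 mice, overlapped among the 4 groups. A call here is p of 0.01 or less in the edgeR test described below. Tbr1 was called higher in 3xTg-S than in WT-S (4.26% of all genes tested were called) and in the genotype by treatment interaction (0.595%). Summed markers of dentate granule cells (Prox1, Dsp and C1ql2) were lower in 3xTg-D (176.2 to 192.3 CPM) than in WT-D (194.0 to 270.3 CPM), with ranges apart, and overlapped under inhibitor (155.6 to 211.3 CPM in 3xTg-S and 163.9 to 259.1 CPM in WT-S). Of single genes tested, 8.17% had ranges apart in 3xTg-D versus WT-D. Of these 3 markers C1ql2 was called lower in each of the 3 comparisons of 3xTg with WT mice, where 4.26% to 5.69% of all genes were called. Summed oligodendrocyte markers were higher in 3xTg-D (5298 to 6376 CPM) than in WT-D (4070 to 4826 CPM), with 3 of 5 markers called (4.91% of all genes). In 3xTg-S versus WT-D, 2 of the 5, Mag and Mog, were called lower (5.69% of all genes were called). Choroid plexus markers reached 730 CPM in 1 WT-D mouse and 290 CPM in 1 WT-S mouse, and were at most 45.3 CPM in 3xTg mice.

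The 9 genes lie on 7 chromosomes of the GRCm38 build. Dlg2 spans chromosome 7 from 90476672 to 92449247, which at 1973 kb makes it the longest of the 9, and Shank1 (44310253 to 44360572) and Shank2 (144001928 to 144424494) lie on the same chromosome. Dlg4, at 30.6 kb the shortest, covers 70016942 to 70047522 of chromosome 11. Dlg3 covers 100767722 to 100818410 of chromosome X, Homer1 93299635 to 93405129 of chromosome 13, Shank3 89499623 to 89560261 of chromosome 15, Dlgap1 69969073 to 70821413 of chromosome 17, and Camk2a lies on chromosome 18. All 9 are protein coding and annotated on the plus strand, and their merged exons sum to between 5844 bases in Dlg3 and 17890 bases in Dlgap1. Shank1 shares 3.22% of its exon bases with 1700008O03Rik and Shank3 2.95% with Gm15609, both on the opposite strand, and for Dlg2 and Dlgap1 each such overlap was under 1% of exon bases. The strand setting of the counting was not stated, so reads in those stretches could not be assigned to 1 gene with certainty. Homer1 makes long scaffold forms and a short form that is induced by neuronal activity and cannot cross-link, and counts per gene do not separate them.

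Per kilobase of exon, Camk2a was by far the most highly read of the 9 genes. Its level in WT-D was 458 ± 34.5 CPM per kb (SD, n = 4), against 42.5 ± 0.562 for the linker Dlgap1, 41.9 ± 1.69 for Dlg3 (SAP102) and 38.7 ± 2.16 for Dlg4 (PSD-95). The ranges of Dlgap1 and Dlg3 overlapped, as did those of Dlg3 and Dlg4. Dlgap1 (41.95 to 43.14 CPM per kb) lay above Dlg4 (36.44 to 41.16 CPM per kb). Shank1 followed with 31.7 ± 2.06 CPM per kb and Dlg2 (PSD-93) with 26.9 ± 0.479, each apart from its neighbours in WT-D. Shank3 (16.9 ± 1.19) and Homer1 (15.5 ± 1.08) overlapped, and Shank2, at 12.1 ± 0.627 CPM per kb, was the lowest. Camk2a was first and Shank2 last in each of the 4 groups. In WT-S and 3xTg-S the ranges of Dlg4 and Shank1 and those of Shank1 and Dlg2 also met, and in 3xTg-S the range of Homer1 met that of Shank2, whose mean there was 14.1 ± 1.6 CPM per kb. The lowest counts in a mouse were 1996 for Shank3 and 2075 for Shank2, both in 3xTg-S. Dlg2, of middle rank per kb, had 8122 to 9923 counts in each 3xTg-D mouse.

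**Figure D1:**
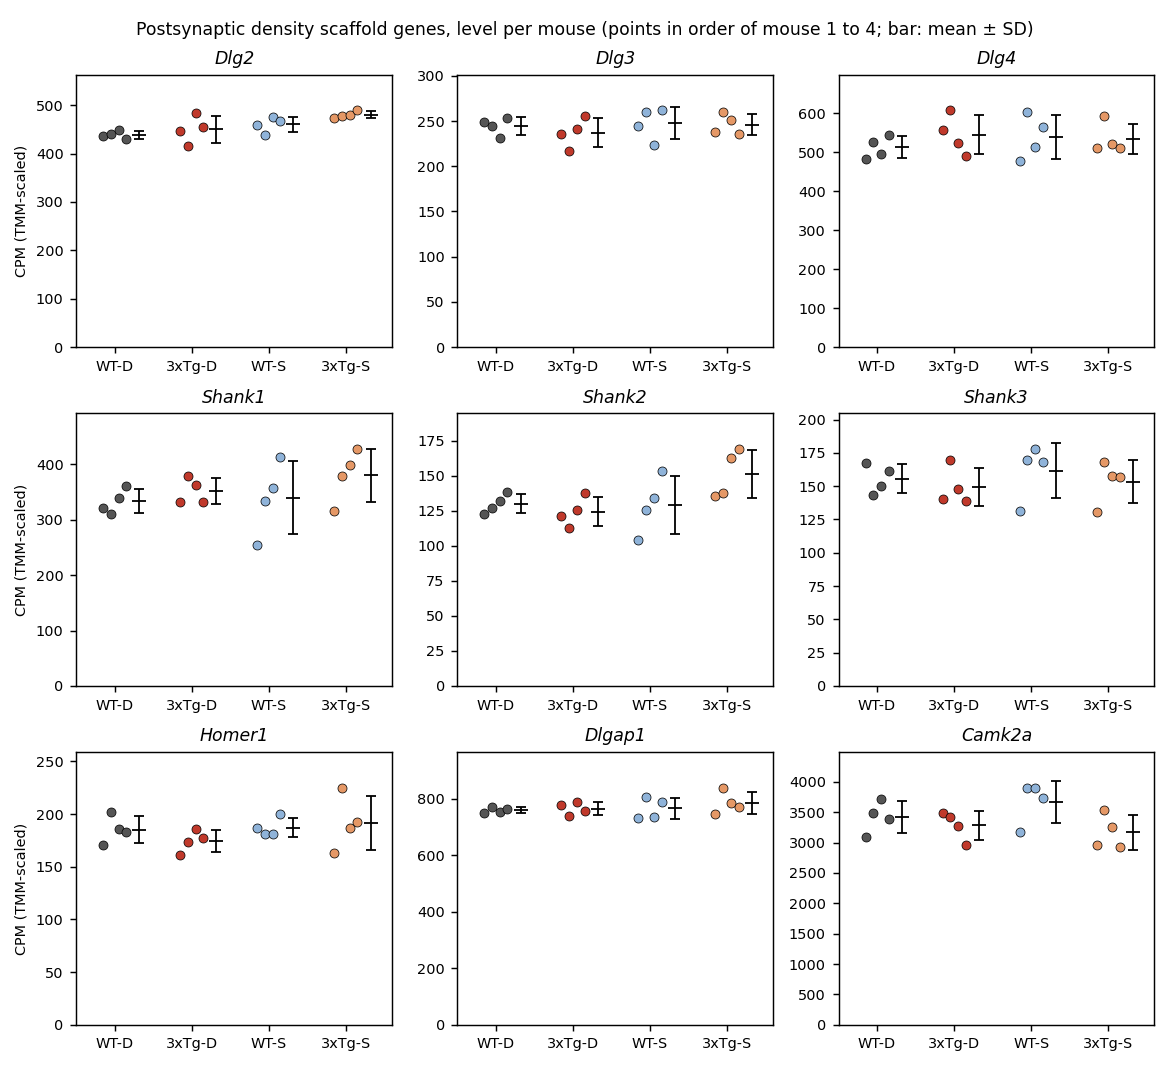
Level of each scaffold gene in each mouse. The horizontal axis gives the 4 groups of 4 mice and the vertical axis gives CPM from 0, each point is 1 mouse (placed from left to right by mouse number), and the bar beside the points is the mean ± SD. The groups overlap for all 9 genes, except that the 3xTg-S points of Dlg2 (473.0 to 489.8 CPM) all lie above its WT-D points (430.1 to 448.5 CPM).

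Genotype and inhibitor were compared pair by pair with edgeR's quasi-likelihood test, and a gene was called a differentially expressed gene (DEG) at p of 0.01 or less, the threshold of the study, with the Benjamini-Hochberg adjusted p given beside it. These comparisons reuse groups, so that WT-D enters 3 of them, and they are not independent. None of the 9 genes was a DEG in 3xTg-D versus WT-D, where 4.91% of the 16475 genes tested were called. None was a DEG in 3xTg-S versus 3xTg-D (0.904% of all genes), in WT-S versus WT-D (0.188%), in 3xTg-S versus WT-S (4.26%) or in 3xTg-S versus WT-D (5.69%), and none in the genotype by treatment interaction (0.595%). At p under 0.05, which 12.6% of all genes passed in the first comparison, 6.33% in the second, 2.25% in the third, 10.7% in the fourth, 13.1% in the fifth and 4.98% in the interaction, the numbers of these genes were, in the same order, 0, 1, 0, 1, 2 and 0. DESeq2 called 1 gene in 3xTg-S versus 3xTg-D (Shank2) and 1 in 3xTg-S versus WT-D (Dlg2) at p of 0.01 or less, and 0 in the other 4. In bulk tissue a level cannot separate fewer cells of a type from less RNA per cell, and this holds for each value that follows.

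The precision bounded how large a difference could have been missed. In each of the 5 pairwise comparisons, the 95% confidence interval of all 9 genes stayed within a 1.5-fold change in either direction. Of the 16475 genes tested, this was so for 11664 in 3xTg-D versus WT-D and 11216 in 3xTg-S versus 3xTg-D. The number was 12101 in WT-S versus WT-D, 10839 in 3xTg-S versus WT-S and 11194 in 3xTg-S versus WT-D. The 9 genes were read more highly than most, with a mean log2 CPM of at least 7.06 (Shank2) against a median of 4.07 over all genes tested. The fitted log2 differences between 3xTg-D and WT-D ran only from -0.09 for Homer1 to 0.09 for Dlg4, with a smallest adjusted p of 0.633. In WT-S versus WT-D they ran from -0.0064 for Shank2 to 0.10 for Camk2a, and the adjusted p of each was 1.00. The interaction was less precise, since it sets 4 group means against each other, and there the interval of 1 gene, Shank2, passed the 1.5-fold bound.

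**Figure D2:**
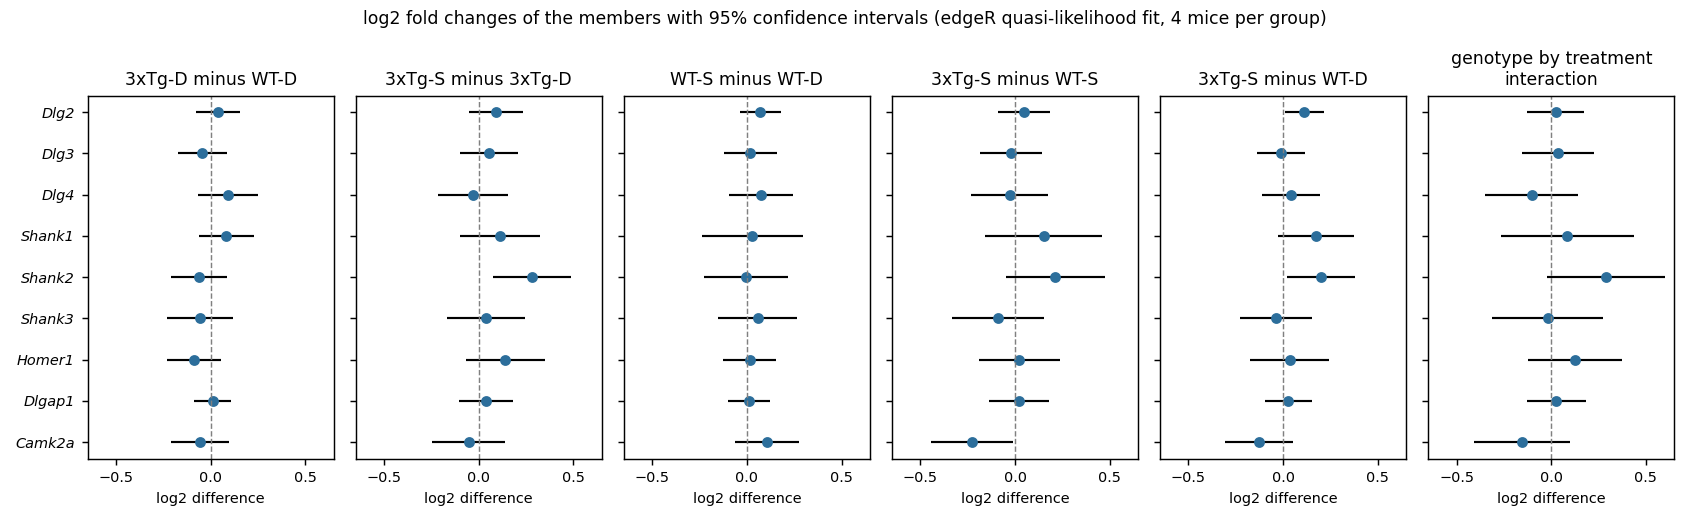
Fitted log2 differences of the 9 genes in 6 comparisons. Each point is the estimate from edgeR and each line its 95% confidence interval, on a horizontal axis in log2 units, with the dashed line at no difference. The intervals of Shank2 in 3xTg-S versus 3xTg-D (5.45% to 40.1% higher) and versus WT-D, of Dlg2 in 3xTg-S versus WT-D, and of Camk2a in 3xTg-S versus WT-S do not reach 0.

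Among the membrane-associated guanylate kinases, Dlg2, which encodes PSD-93, a partner of NMDA receptors and potassium channels, showed the tightest groups. Its levels in mice 1 to 4 were 435.6, 440.0, 448.5 and 430.1 CPM in WT-D, and 473.0, 477.2, 479.8 and 489.8 CPM in 3xTg-S. All 4 inhibitor-treated 3xTg mice therefore stood above all 4 vehicle-treated WT mice, and Dlg2 was the 1 gene of the 9 whose ranges were apart in any pairwise comparison (9.55% of all genes tested had ranges apart in this one, 8.17% in 3xTg-D versus WT-D, 3.16% in 3xTg-S versus 3xTg-D, 1.48% in WT-S versus WT-D and 6.75% in 3xTg-S versus WT-S). The difference was small, at 0.11 on the log2 scale (SE 0.05) or 8.06% higher (95% confidence interval 0.506% to 16.2%), and edgeR did not call it (adjusted p = 0.337). With DESeq2 the value was 0.12 and its p was below the threshold of 0.01. The 2 groups between these extremes covered both ranges in part, with 446.3, 416.3, 483.2 and 455.4 CPM in 3xTg-D and 459.3, 438.7, 476.1 and 466.8 CPM in WT-S. The separate contrasts of Dlg2 for genotype under vehicle (0.04, adjusted p = 0.81), for inhibitor in 3xTg mice (0.09, adjusted p = 0.733) and for inhibitor in WT mice (0.07, adjusted p = 1.00) were smaller and were not called.

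Dlg3, the X-linked gene of SAP102, a guanylate kinase prominent during synapse formation, ranged from 216.9 to 262.1 CPM over the 16 mice, and its 5 pairwise log2 differences lay between -0.04 and 0.05. Dlg4, the gene of PSD-95, the main anchor of glutamate receptors through auxiliary subunits, ranged from 476.4 to 608.2 CPM. Its highest values were those of mouse 2 in 3xTg-D (608.2 CPM), WT-S (604.4 CPM) and 3xTg-S (592.1 CPM), and none of the pairwise differences of Dlg4 was larger than its spread within groups. Dlg4 was 6.53% higher in 3xTg-D than in WT-D (95% confidence interval -4.63% to 19.0%, adjusted p = 0.653) and differed by -2.10% in 3xTg-S from 3xTg-D (interval -13.9% to 11.3%, adjusted p = 0.924).

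Dlgap1, which encodes the linker SAPAP1 (GKAP) that joins Dlg proteins to Shank proteins, was the steadiest gene after Dlg2. Under vehicle it was read at 760.1 ± 10.1 CPM in WT mice and 765 ± 21.7 CPM in 3xTg mice, and under inhibitor at 766 ± 37.3 CPM and 785 ± 39.7 CPM, respectively (SD, n = 4 each). Its differences amounted to 0.728% for genotype under vehicle (95% confidence interval -5.80% to 7.71%) and 2.59% for inhibitor in 3xTg mice (-7.01% to 13.2%). Homer1, whose protein couples Shank to metabotropic glutamate receptors, had means of 185 ± 12.9 CPM (WT) and 174 ± 10.2 CPM (3xTg) under vehicle, and of 187 ± 9.08 CPM (WT) and 192 ± 25.5 CPM (3xTg) under inhibitor. In the last group mouse 1 was the lowest at 162.9 CPM and mouse 2 the highest at 225.0 CPM, and both lay outside the range of the WT-S mice. Homer1 differed by -5.80% in 3xTg-D from WT-D (interval -14.7% to 3.98%, adjusted p = 0.633) and was 10.1% higher in 3xTg-S than in 3xTg-D (interval -4.74% to 27.3%, adjusted p = 0.732), and the groups overlapped in both.

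Shank2, one of the master scaffolds that tie the Dlgap layer to Homer and actin, gave the largest difference among the 9 genes. It was read in mice 1 to 4 at 121.5, 113.1, 125.6 and 138.1 CPM in 3xTg-D, and at 135.7, 137.6, 162.9 and 169.3 CPM in 3xTg-S. Mouse 4 of 3xTg-D, at 138.1 CPM, lay above mice 1 and 2 of 3xTg-S, so the groups overlapped, while mice 3 and 4 of 3xTg-S were higher than all others of the 16. The log2 difference was 0.28 (SE 0.09), or 21.5% higher in 3xTg-S (95% confidence interval 5.45% to 40.1%), and it missed the threshold of 0.01 while passing 0.05 (adjusted p = 0.722). DESeq2 gave 0.28 as well, past the threshold. With each of the 8 mice left out in turn, the edgeR value lay between 0.22 and 0.33, lowest without mouse 4 of 3xTg-S. The vehicle groups of the 2 genotypes overlapped, with 122.8, 127.1, 131.8 and 138.5 CPM in WT-D, and 3xTg-D differed from WT-D by -4.13% (interval -13.4% to 6.10%, adjusted p = 0.756). In WT-S the values spread from 104.0 over 125.4 and 134.6 to 153.8 CPM, and WT-S differed from WT-D by -0.441% (interval -14.7% to 16.1%, adjusted p = 1.00). The difference between the inhibitor's effects in 3xTg and in WT mice was 0.29 on the log2 scale (SE 0.15), with an interval from -1.47% to 51.3%, and did not pass (adjusted p = 0.788). Shank2 in 3xTg-S was also 14.9% above WT-D (interval 1.57% to 30.1%, adjusted p = 0.305) and 15.9% above WT-S (interval -3.39% to 38.9%, adjusted p = 0.594).

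Over the 16 mice, Shank2 and the share of reads outside annotated genes had a correlation that did not pass after adjustment (r = 0.58 with group means subtracted, permutation test, adjusted p = 0.41). Mouse 4, the highest for Shank2 in each of the 4 groups, had the highest such share of its group in WT-D (12.5%), WT-S (13.1%) and 3xTg-S (15.1%), though not in 3xTg-D. With that share as a covariate, Shank2 was 0.22 higher in 3xTg-S than in 3xTg-D on the log2 scale, and the threshold was again missed. Of the 5 oligodendrocyte markers 1, Mag, was called lower in 3xTg-S than in 3xTg-D, and the summed levels overlapped (5298 to 6376 CPM in 3xTg-D and 4064 to 6405 CPM in 3xTg-S). The median log2 difference in this comparison was -0.31 for these markers, -0.32 for the 5 microglia markers and -0.23 for the 5 astrocyte markers, with none of the latter 10 called. The part of these cell types in the Shank2 value was not tested.

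Shank1, a scaffold of mature spines, had its highest mean in 3xTg-S, as did Shank2, but with a wider spread within groups. Its levels in mice 1 to 4 were 332.4, 378.8, 363.3 and 332.9 CPM in 3xTg-D, 315.5, 379.2, 399.1 and 427.8 CPM in 3xTg-S, and 254.2, 333.7, 357.5 and 413.1 CPM in WT-S, and the groups overlapped throughout. It was 8.12% higher in 3xTg-S than in 3xTg-D (95% confidence interval -6.54% to 25.1%, adjusted p = 0.753) and 12.8% higher in 3xTg-S than in WT-D (interval -1.78% to 29.6%, adjusted p = 0.457). Shank3, which has been linked to autism and to Phelan-McDermid syndrome in people, was 2.67% higher in 3xTg-S than in 3xTg-D (interval -11.0% to 18.4%, adjusted p = 0.914) and differed by -3.79% in 3xTg-D from WT-D (interval -14.7% to 8.48%, adjusted p = 0.817). Shank3 ranged from 130.5 to 178.0 CPM, and the 2 lowest of its 16 values were those of mouse 1 in 3xTg-S (130.5 CPM) and in WT-S (131.4 CPM).

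Camk2a had its lowest mean in 3xTg-S and its highest in WT-S. The 4 WT-S mice were read at 3172, 3903, 3896 and 3732 CPM, and the 4 3xTg-S mice at 2958, 3536, 3260 and 2925 CPM. Of the WT-S mice only mouse 1, at 3172 CPM, fell within the range of 3xTg-S. The log2 difference of 3xTg-S from WT-S was -0.23 (SE 0.10), or -14.6% (95% confidence interval -26.4% to -0.904%), and was not called (adjusted p = 0.427). Under vehicle, 3xTg-D differed from WT-D by -3.81% (interval -13.6% to 7.05%, adjusted p = 0.792), with 3489, 3422, 3278 and 2959 CPM in 3xTg-D and 3094, 3480, 3718 and 3395 CPM in WT-D. Camk2a was 7.49% higher in WT-S than in WT-D (interval -4.36% to 20.8%, adjusted p = 1.00) and differed by -3.57% in 3xTg-S from 3xTg-D (interval -15.7% to 10.3%, adjusted p = 0.866), and the difference between these effects was -0.16 on the log2 scale with adjusted p = 0.788.

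Within groups, the 9 genes differed in how much they varied from mouse to mouse. The pooled SD of log2 CPM was 0.05 for Dlg2 and 0.06 for Dlgap1, 0.08 for Dlg3, 0.12 for Dlg4, Homer1 and Camk2a, 0.15 for Shank3, 0.16 for Shank2 and 0.19 for Shank1. The median over the 1605 genes read at least as highly as the lowest of the 9 was 0.11, so the 3 Shank genes were above it and Dlg2, Dlgap1 and Dlg3 below it. Of all 16 mice, mouse 1 of WT-S stood lowest for both Shank1 (at -0.46 from the mean of the 16 on the log2 scale) and Shank2.

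**Figure D3:**
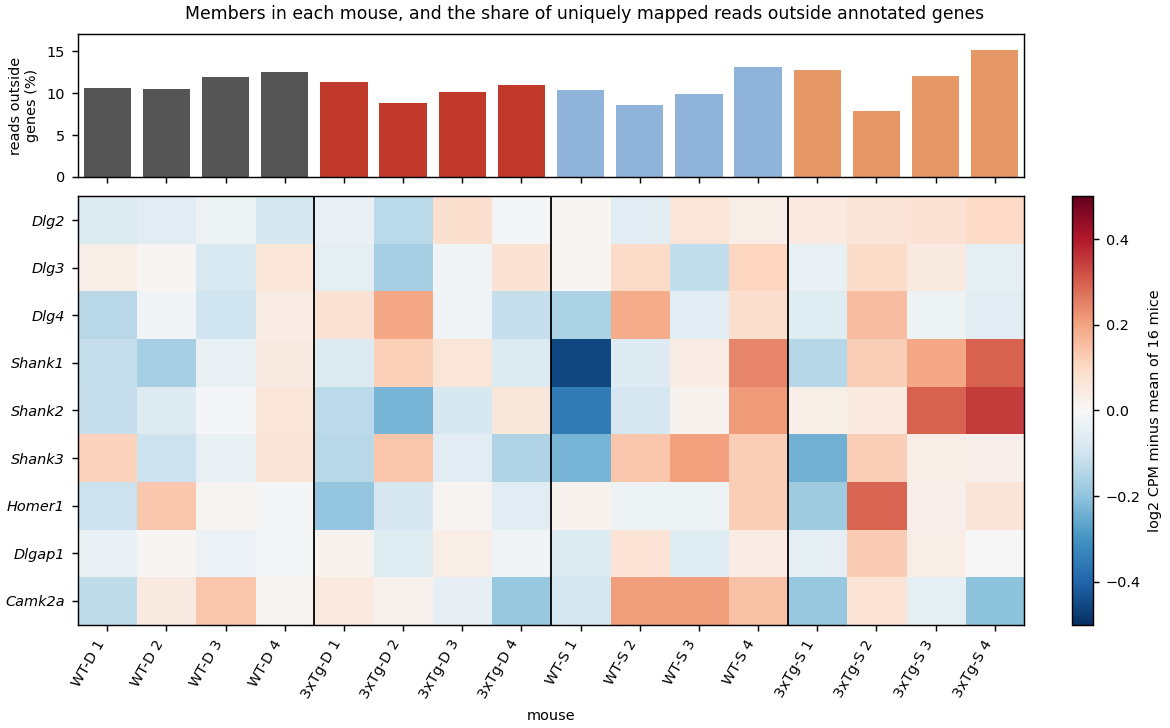
Each scaffold gene in each mouse. The lower panel gives log2 CPM minus the mean of the 16 mice (red above, blue below, scale from -0.5 to 0.5) for the 9 genes in rows and the mice in columns, with black lines between groups, and the bars above give the percentage of uniquely mapped reads outside annotated genes. Shank1 and Shank2 are both lowest in WT-S mouse 1 and highest in 3xTg-S mouse 4, which also has the highest share of reads outside genes (15.1%).

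Once each group's mean was subtracted, 31 of the 36 pairs of the 9 genes had a positive Pearson correlation over the 16 mice, with a median r of 0.32 and a range from -0.57 to 0.78. None of the 36 passed an adjusted p of 0.05 (two-sided permutation of mice within groups, 100000 resamples), and the smallest adjusted p of a Spearman correlation was 0.173. The closest pairs were Shank1 with Shank3 (r = 0.78, permutation p = 0.00914, adjusted p = 0.125, and Spearman's rho = 0.64, permutation p = 0.0191) and Shank1 with Shank2 (r = 0.78, permutation p = 0.0139, adjusted p = 0.125, and rho = 0.66, permutation p = 0.0192). With the 2 mice of most extreme Shank1 level left out, these values were r = 0.74 and r = 0.51, so the second rested in part on those mice. Shank1 and Shank2 had r = 0.99 among the 8 WT mice and r = 0.42 among the 8 3xTg mice, a difference that was not tested. Dlg4 and Camk2a had r = 0.71 (permutation p = 0.00719, adjusted p = 0.125, rho = 0.66, permutation p = 0.0171) and r = 0.72 with the 2 most extreme mice left out. At the other end, Dlg2 and Dlg4 had r = -0.57 (permutation p = 0.0635, adjusted p = 0.286, rho = -0.46, permutation p = 0.132), or -0.52 with the 2 most extreme mice left out. Of the 9 correlations with the share of reads outside genes, that of Shank2 was the largest (r = 0.58, permutation p = 0.0631, adjusted p = 0.41, rho = 0.54, permutation p = 0.0695), with r = 0.50 with the 2 most extreme mice left out, and that of Camk2a the most negative (r = -0.42, permutation p = 0.182, adjusted p = 0.41, rho = -0.43, permutation p = 0.143), with r = -0.10 likewise. After the mean of each replicate number was also subtracted, r was 0.82 for Shank1 with Shank3, 0.59 for Shank1 with Shank2, 0.81 for Dlg4 with Camk2a and -0.40 for Dlg2 with Dlg4. The correlation with the share of reads outside genes then fell to r = 0.34 for Shank2 and turned to r = 0.08 for Camk2a.

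With group means subtracted, the protein-coding genes most like each of the 9 over the 16 mice were sought among 14256 others. These included the rest of the 9. The search is a description with no test, since all genes of a mouse share its library. Shank2 was most like Mast2 (r = 0.94) and Sptbn4 (r = 0.93), Shank3 like Neurl1a (r = 0.93) and Rapgef1 (r = 0.93), and Shank1 like Creld2 (r = 0.91) and Cyp2s1 (r = 0.89). For Dlgap1 the gene given is Prickle2 (r = 0.91), and Homer1 was most like Stac (r = 0.89) and Etv5 (r = 0.88). Dlg3 was most like Ogdh (r = 0.91) and Bcl11a (r = 0.91), Dlg2 like Epm2aip1 (r = 0.89) and Ptprt (r = 0.89), Dlg4 like Gng7 (r = 0.88) and Wipi2 (r = 0.88), and Camk2a like Coq2 and Anapc11 (r = 0.85 for both). No gene was listed for more than 1 of the 9.

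A further 40 genes of the postsynaptic density, among them the paralogues Dlg1, Dlgap2, Homer2 and Camk2b, were all tested. In 3xTg-D versus WT-D, 2 of the 40 were called, Camk2d lower and Mpp2 higher, a share near the 4.91% of all genes called in that comparison. Camk2d, the delta subunit of CaMKII, was read at 66.4, 66.2, 67.8 and 62.6 CPM in WT-D and at 46.9, 49.3, 46.9 and 60.8 CPM in 3xTg-D. Its ranges were apart, as were those of 8.17% of all genes tested in this comparison. Its level fell by 0.37 on the log2 scale (SE 0.08, adjusted p = 0.0552), while the alpha subunit Camk2a differed by -0.06 in the same mice. Summed oligodendrocyte markers were higher and summed dentate granule cell markers lower in these 3xTg-D mice, as given above, and the medians of the microglia and astrocyte markers were 0.31 and 0.24 with none called. The part of these cell types in the calls of this comparison was not tested. Mpp2, a further guanylate kinase scaffold, was read at 112.4, 118.9, 111.7 and 116.1 CPM in WT-D and at 125.2, 122.8, 129.0 and 133.2 CPM in 3xTg-D, and rose by 0.15 (SE 0.05, adjusted p = 0.184). The call of Mpp2 was lost when any 1 of 7 of the 8 mice was left out.

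Cit, which encodes citron kinase and the neuronal form citron-N that binds PSD-95, was the 1 gene of the 40 called in 3xTg-S versus 3xTg-D (0.904% of all genes) and in 3xTg-S versus WT-S (4.26% of all genes). Counts per gene do not separate the 2 forms. It was read at 55.6, 50.6, 50.4 and 68.2 CPM in 3xTg-S, against 42.4, 39.2, 39.0 and 50.0 CPM in 3xTg-D and 37.7, 45.1, 40.8 and 45.5 CPM in WT-S. All 4 mice of 3xTg-S lay above those of both other groups, by 0.40 on the log2 scale in each case (SE 0.11, adjusted p = 0.722 against 3xTg-D, and SE 0.11, adjusted p = 0.145 against WT-S). Of all genes tested, 3.16% had ranges apart in 3xTg-S versus 3xTg-D and 6.75% in 3xTg-S versus WT-S. The fitted difference between the inhibitor's effects on Cit in 3xTg and in WT mice was 0.50 (SE 0.15). It was called in the interaction (0.595% of all genes) but did not pass after adjustment (adjusted p = 0.788). No gene of the 40 was called by edgeR in WT-S versus WT-D, where 0 had p under 0.05 (2.25% of all genes) and DESeq2 called 0, or in 3xTg-S versus WT-D, where 4 had p under 0.05 (13.1% of all genes). In the latter DESeq2 called Cit with the DEGES size factors of the study, and Cit and Cnksr2 with median-ratio factors. With single mice left out, the call of Cit against 3xTg-D was lost without mouse 1, 2 or 3 of 3xTg-D or mouse 1 or 4 of 3xTg-S (values from 0.28 to 0.48), and that against WT-S without mouse 4 of 3xTg-S or mouse 1 or 3 of WT-S.

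The receptors and adhesion molecules that these scaffolds anchor were counted as a list of 14 (Grin1, Grin2a, Grin2b, Gria1, Gria2, Gria3, Grm5, Cacng2, Cacng3, Cacng8, Nlgn1, Nlgn2, Nlgn3 and Lrrtm2). None of the 14 was called by edgeR as fitted here in any of the 6 comparisons, and DESeq2 called 1 in 3xTg-D versus WT-D (Grin2b) and 0 in the other 5. Other settings of edgeR (no filter, the replicate block, all 16 mice in 1 fit or the covariate) called 1 of the 14 in some comparisons. The numbers with p under 0.05 were 1 in 3xTg-D versus WT-D (12.6% of all genes), 1 in 3xTg-S versus 3xTg-D (6.33%), 3 in 3xTg-S versus WT-D (13.1%), 1 in the interaction (4.98%) and 0 in WT-S versus WT-D (2.25%) and in 3xTg-S versus WT-S (10.7%). In 3xTg-S versus 3xTg-D all 14 fitted differences were positive, with a median of 0.13 on the log2 scale, where 51.9% of all genes tested were positive with a median of 0.0069. The same count was 31 of the other 40 postsynaptic density genes, with a median of 0.08, and 7 of the 9 scaffold genes, with a median of 0.05. With single mice left out, the positive differences numbered 13 to 14 of the 14 (medians 0.09 to 0.16), 26 to 33 of the 40 (0.03 to 0.10) and 6 to 7 of the 9 (0.03 to 0.10). The median of the 40 was 0.032 without mouse 2 of 3xTg-D and 0.047 without mouse 3 of 3xTg-S, and that of the 9 was 0.026, 0.032 and 0.099 without mice 2, 3 and 1 of 3xTg-S. In WT-S versus WT-D, where 49.9% of all genes were positive, 6 of the 14, 25 of the 40 and 8 of the 9 were positive. In 3xTg-D versus WT-D, which shares the 3xTg-D mice, 5 of the 14, 18 of the 40 and 4 of the 9 were positive. The numbers were 13 of the 14, 22 of the 40 and 5 of the 9 in 3xTg-S versus WT-S (50.4% of all genes). They were 13, 29 and 6 in 3xTg-S versus WT-D (48.8% of all genes). All genes of a list were read in the same libraries, so these counts are not counts of independent results. The member of the 14 with the widest difference, named here after its values were seen, was Grin2b, the GluN2B subunit of the NMDA receptor, at -0.43 in 3xTg-D versus WT-D (SE 0.17, adjusted p = 0.32) and 0.51 in 3xTg-S versus 3xTg-D (SE 0.24, adjusted p = 0.722), with overlapping ranges in both.

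**Figure D4:**
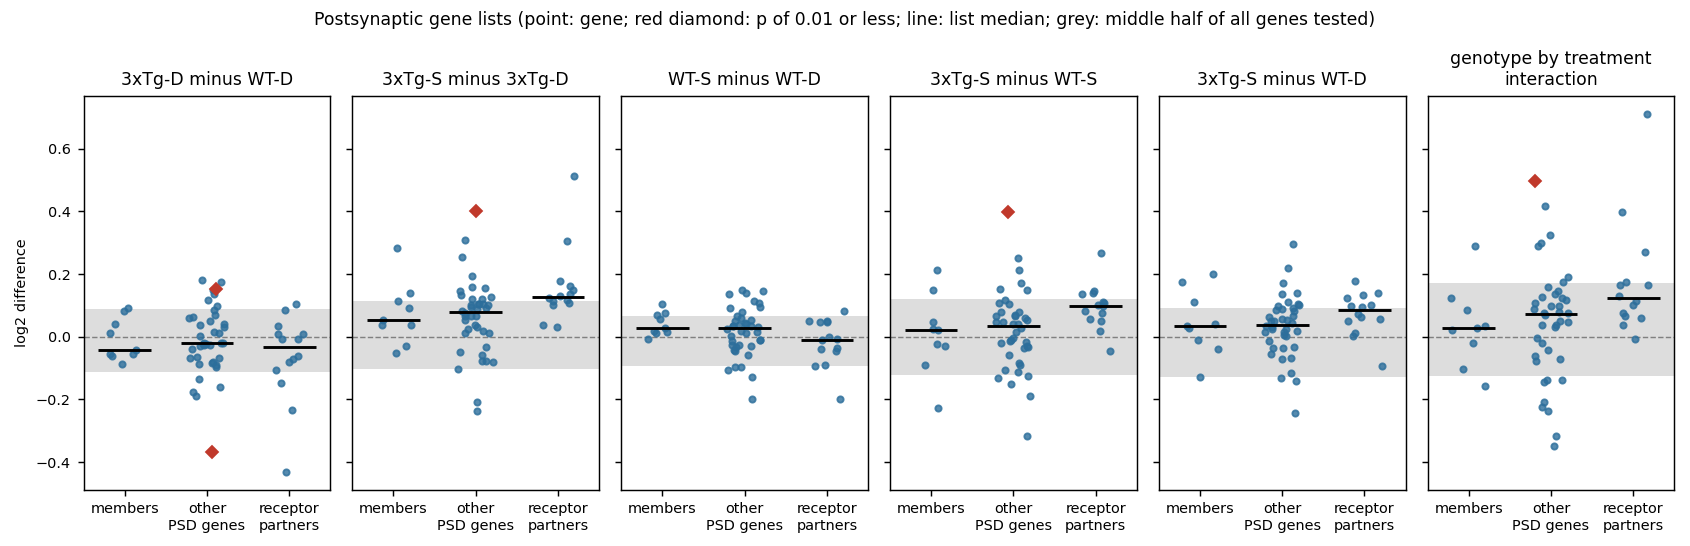
Fitted log2 differences of 3 postsynaptic gene lists in 6 comparisons. Each point is a gene, red diamonds mark p of 0.01 or less, black lines are list medians, and the grey band spans the middle 50% of all genes tested. In 3xTg-S versus 3xTg-D the medians are 0.05 for the 9 scaffold genes, 0.08 for the other 40 postsynaptic density genes and 0.13 for the 14 receptor and adhesion partners, and the called genes are Camk2d and Mpp2 (3xTg-D versus WT-D) and Cit (3 comparisons).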

How the data were processed

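Hippocampal RNA of 16 mice was sequenced as single-end reads from poly(A)-selected libraries. The authors trimmed reads with Trimmomatic 0.35, aligned them with STAR 2.5.1b to GRCm38 with the Gencode annotation, and deposited raw read counts per gene. Adapters carried unique molecular identifiers, but whether reads were collapsed by them, and the strand setting, are not given in the sources used here. The titles and treatment labels name the Cayman inhibitor, whereas a protocol text shared by the series names ab142089, and the titles were followed. Lines of the table that summarise alignment, 24.0% to 27.8% of its reads, were left out of library sizes. Replicates were distinct libraries (chi-square per degree of freedom of 3.90 to 47.2 within groups). The same 4 numbers label mice in each group, with nothing to say what a number shares. By the check of deviations from group means, same-numbered mice were correlated in WT-S and WT-D (r of 0.11 to 0.34 over 4 pairs), and the replicate block called none of the 9 genes there. In the other comparisons at least 1 pair had r under 0.1.

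Genes passed edgeR's filterByExpr (minimum count 10, minimum total 15) over the 16 mice, which kept 16475 of 33942 genes with a count, the 9 scaffold genes included. Each pair of groups was fitted alone in edgeR 4.0.16 (R 4.3.3) with TMM normalization and the quasi-likelihood test, since the study compared groups pairwise with DESeq2, and the interaction was fitted over all 16 mice. The code was tested on simulated data. CPM were scaled by TMM over the 16 mice, and levels per kb used merged exons of the Gencode M21 annotation of the same build, in which each of the 9 genes had the position given by the files. For correlations and spread, log2 CPM had a prior count of 2. Intervals cover the spread between mice. Alternatives were DESeq2 1.42.0 with 2 kinds of size factors, median-ratio factors in edgeR, other filters, all 16 mice in 1 fit, a replicate block, the share of reads outside genes as a covariate, an adjusted threshold, and each mouse left out. The 9 genes, the lists of 40 and 14 and the markers were chosen with earlier results of these data known. Values were printed for all 9, and of the 40 for up to 4 called genes per comparison with the smallest p. A few genes of these lists and of the likeness search are not reported here. No sequences are shown.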

Additional observations from a re-analysis of the deposited data

Results flagged for a closer look

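Dlg4 in mouse 2 of 3xTg-S, at 592 CPM, stood away from the other 3 mice of its group, which lay between 509.9 and 522.4 CPM. It was the only one of the 36 sets of 4 values (9 genes in 4 groups) with such a sample, where chance gives about 1 in 20 sets. The highest Dlg4 values in 3xTg-D and WT-S were also those of mouse 2. The interaction of Cit, the citron gene, was 0.50 on the log2 scale between the inhibitor's effects in 3xTg and in WT mice (edgeR, past 0.01, adjusted p = 0.788), and it kept p of 0.01 or less without each of the 16 mice in turn (0.38 to 0.57). The cause of either was not tested.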

How the results depend on the processing

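No scaffold gene was called under edgeR with median-ratio factors, a minimum of 10 counts in every mouse, all 16 mice in 1 fit or the covariate. In 3xTg-S versus 3xTg-D, Shank2 was the 1 call without a filter (0.26), with the replicate block (0.28) and with DESeq2 (0.28 with either size factor). Of these calls of Shank2, only the one with the block also passed an adjusted p of 0.05. No scaffold gene passed that adjusted threshold in any other setting or comparison. In 3xTg-S versus WT-D, 1 gene was called with the block (Shank2, 0.20) and with DESeq2 of either kind (Dlg2, 0.12 and 0.11). Of all 16475 genes tested the block called 1075 there, and DESeq2 called 1023 to 1031. The block gave 2 calls in 3xTg-S versus WT-S (Camk2a, -0.23, and Shank2, 0.22), where it called 1339 of all 16475 genes tested. It gave 1 in the interaction (Shank2, 0.29), where it called 624 of all genes. Without the block these numbers over all genes were 702 and 98. With single mice left out, 0 to 1 scaffold gene was called in the 3 comparisons with 3xTg-S, and 0 in the others. Those calls were Shank2 versus 3xTg-D (0.33) without mouse 4 of 3xTg-D or mouse 1 or 2 of 3xTg-S, Shank2 versus WT-D (0.25) and Camk2a versus WT-S (-0.29) without mouse 2 of 3xTg-S, and Shank1 versus WT-D (0.25) without mouse 1 of 3xTg-S. What mice of the same number share is not known. Outside WT-S versus WT-D, 3 to 7 of the 8 mice of a comparison correlated best with their own number. Same-numbered mice had a mean r of 0.21 in 3xTg-S versus 3xTg-D (-0.066 for other pairs) and 0.24 in 3xTg-S versus WT-S (-0.084). The mean was 0.18 in 3xTg-S versus WT-D (-0.058) and 0.041 in 3xTg-D versus WT-D (-0.010). Over all genes, the block raised the calls in 3xTg-S versus 3xTg-D from 149 to 1133, and the share of them that were higher from 30.9% to 60.6%.

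Of the 40 genes, the 2 calls in 3xTg-D versus WT-D became 1 with median-ratio factors in edgeR, no filter, all 16 mice, the block or the covariate (Mpp2 lost), and 0 after adjustment, with 1 to 2 over mice left out. In 3xTg-S versus 3xTg-D there were 3 with the block (1133 of all 16475 genes tested), 0 after adjustment and 0 to 2 over mice left out. In 3xTg-S versus WT-S there were 4 with the block (1339 of all genes), 0 after adjustment and 0 to 2 over mice left out. In 3xTg-S versus WT-D, where none was called, there was 1 without a filter, with all 16 mice, with the covariate or with DESeq2 on DEGES factors. There were 2 with the block (1075 of all genes) or DESeq2 on median-ratio factors (1031 of all genes), and 0 to 2 over mice left out. WT-S versus WT-D had 0 to 2 over mice left out. The interaction had 2 with the block (624 of all genes), 0 after adjustment and 1 to 3 over mice left out.

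For the 14 receptor and adhesion genes, tried after the data were seen, the count of 0 became 1 in each of the following. Grin2b was called in 3xTg-D versus WT-D without a filter, with the block and with DESeq2 of either kind, in 3xTg-S versus 3xTg-D and the interaction without a filter or with the block, and in 3xTg-S versus WT-S with the block. With all 16 mice in 1 fit, Grm5 was called in 3xTg-S versus 3xTg-D and Cacng2 in 3xTg-S versus WT-D, where the covariate gave Lrrtm2. With single mice left out there were 0 to 1 in 3xTg-D versus WT-D (Gria1 without mouse 2 and Grin2a without mouse 3 of 3xTg-D), in WT-S versus WT-D (Grin2b without mouse 4 of WT-S) and in 3xTg-S versus WT-D (Cacng2 without mouse 1 of 3xTg-S), and 0 in the others. Without a filter the median of the 9 genes in 3xTg-S versus 3xTg-D was 0.029.

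Signs of 10 small differences turned with all mice kept, none beyond 0.05. With the covariate Shank2 was 0.012 in 3xTg-D versus WT-D and 0.046 in WT-S versus WT-D, Dlg4 0.029 and Camk2a 0.0060 in 3xTg-S versus 3xTg-D, Dlg4 0.0079 in 3xTg-S versus WT-S, Dlg3 0.00022 in 3xTg-S versus WT-D and Shank3 0.038 in the interaction. Dlg3 in 3xTg-S versus WT-D was 0.0081 with all 16 mice, and without a filter the interactions of Dlg2 and Dlgap1 were -0.0088 and -0.0046. The cause was not tested. Of 462 gene results with all mice kept, 437 kept their direction and side of the threshold, 10 gained a call and 5 lost one.

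With single mice left out, signs turned in the following ranges. In 3xTg-D versus WT-D it was -0.0046 to 0.025 for Dlgap1. In 3xTg-S versus 3xTg-D they were -0.00020 to 0.083 for Dlg3, -0.086 to 0.014 for Dlg4 and -0.0087 to 0.11 for Shank3. In WT-S versus WT-D they were -0.011 to 0.063 for Dlg3, -0.075 to 0.14 for Shank1, -0.096 to 0.083 for Shank2, -0.022 to 0.059 for Homer1 and -0.015 to 0.030 for Dlgap1. In 3xTg-S versus WT-S they were -0.072 to 0.00012 for Dlg3, -0.087 to 0.027 for Dlg4, -0.068 to 0.095 for Homer1 and -0.017 to 0.047 for Dlgap1. In 3xTg-S versus WT-D they were -0.035 to 0.013 for Dlg3, -0.0082 to 0.070 for Dlg4, -0.080 to 0.032 for Shank3, -0.048 to 0.10 for Homer1 and -0.0011 to 0.052 for Dlgap1. In the interaction they were -0.027 to 0.058 for Dlg2, -0.018 to 0.063 for Dlg3, -0.032 to 0.17 for Shank1, -0.11 to 0.050 for Shank3 and -0.024 to 0.052 for Dlgap1.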
